A study of Mus musculus with 12 samples.

Results

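Ribosome biogenesis and RNA polymerase I genes make up a set of 48 genes, and they are described here across the livers of wild-type (WT) mice and of transgenic (TG) mice that overexpress E4BP4 in the liver. The members were taken by name from the gene tables of all libraries, and 48 of 48 names were found among the 48440 genes listed. They were grouped by role into 6 genes of RNA polymerase I and its factors, Myc, 7 proteins of small nucleolar ribonucleoproteins (snoRNPs), 5 nucleolar proteins of several roles, 18 factors of the small ribosomal subunit and 11 of the large subunit. The tables hold 12 RNA-seq libraries in 4 groups of 3 replicates, each genotype being sampled at both ZT2 and ZT14. ZT is the time in hours after lights on, in a cycle of 12 h light and 12 h dark, so ZT2 belongs to the first hours of light and ZT14 to the first hours of darkness. All groups were male C57BL/6 mice aged 8 weeks on chow diet, per the labels' protocols. The labels call the transgene liver-specific and name neither its promoter nor the number of lines. They do not say that replicates came from separate animals, so the p-values measure the spread between these samples, which may be technical.

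Ribosomes are built in the nucleolus, where RNA polymerase I transcribes the long precursor of the ribosomal RNAs. Small nucleolar RNAs with their proteins modify that precursor, and large assemblies of further factors fold and cut it into the RNAs of the small and the large subunit. Myc is known to raise the transcription of many of these genes by binding E-box sequences, and E4BP4 (gene Nfil3) is a repressor that binds D-box sequences shared with the clock output factors. In mouse liver, ribosome production is known to follow the daily cycle of feeding and fasting, and mice eat mostly in the dark phase.

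Nfil3 checked the genotype labels. Nfil3 was at 48.8, 29.4 and 37.6 CPM in WT and 71.1, 69.8 and 62.6 CPM in TG at ZT2, and at 28.1, 40.4 and 24.6 CPM in WT and 63.8, 93.9 and 77.9 CPM in TG at ZT14. All TG libraries were above all WT libraries at both times. Its log2 fold change, TG against WT, was 0.81 (adjusted p = 0.359, with an SE of 0.21) at ZT2 and 1.34 (adjusted p = 0.0306, with an SE of 0.21) at ZT14, by edgeR's quasi-likelihood test with Benjamini-Hochberg adjustment over the 15244 genes that passed a filter on low counts. The threshold for a call was an adjusted p of 0.05. Library totals ran from 16035121 to 23981021 gene reads, and levels below are in CPM, reads scaled to a common library size with TMM factors. TG ZT2 replicate 2 and TG ZT14 replicate 3 stood apart from their groups. A chi-square of the counts over genes, per degree of freedom, was 59.0 and 49.9 between the first of them and its fellow replicates and 15.5 between those 2. For the second it was 74.1 and 88.9, against 28.4 between its fellow replicates, and within the WT groups it was 9.53 to 34.0. The deviations of both libraries from their group means had a correlation of 0.433. Counts of called members are given below with and without both. Hepatocyte markers summed to 71043 to 86381 CPM in the 12 libraries. Summed endothelial markers, 7 of 7 tested, ran from 275 to 306 CPM (WT) and from 289 to 299 CPM (TG) at ZT2. At ZT14 they ran from 253 to 269 CPM (WT) and from 251.3 to 277 CPM (TG). Within each genotype they were lower in every ZT14 library than in any ZT2 library. In WT, but not in TG, summed erythroid markers and summed neutrophil markers did not overlap between the times either. Erythroid markers in WT, 5 of 6 tested, were at 277 to 350 CPM at ZT2 and 238 to 270 CPM at ZT14. Neutrophil markers in WT, 2 of 6 tested, were near the floor, at 1.20 to 2.84 CPM and 0.256 to 0.591 CPM. At ZT14 summed erythroid markers were higher in every TG library (291 to 415 CPM) than in any WT library. The part of these markers in the time and genotype differences below was not tested. Kupffer cell and macrophage markers (223 to 294 CPM over all libraries) and lymphocyte markers (11.4 to 19.6 CPM) overlapped between the times within each genotype. So did stellate cell and fibroblast markers (145 to 263 CPM) and cholangiocyte markers (36.0 to 95.2 CPM). Ly6g, Elane, Mpo, Camp, Slc4a1 and Ms4a1 were at 0 in some libraries. In whole liver, fewer cells of a type and less RNA per cell cannot be told apart.

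All 48 members passed the filter on low counts. On the TPM scale (transcript abundance scaled to a fixed library sum), which corrects for gene length and is the deposited value, Npm1 (nucleophosmin, a nucleolar chaperone) had the highest mean level over the 12 libraries at 73.3 TPM. Imp3, a protein of the early small subunit assembly, followed at 60.2 TPM, and Emg1, a methyltransferase of the small subunit RNA, at 44.1 TPM. Nucleolin (Ncl) was at 32.4 TPM. The lowest levels were those of Rrp1b at 1.92 TPM, Dimt1 at 2.23 TPM, Wdr12 at 2.77 TPM and Polr1e at 2.79 TPM. Polr1a, the largest subunit of RNA polymerase I, stood at 4.61 TPM.

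Some members share reads or positions with other genes, and whether the counting used strand is not given in the sources used here. Only 46.3% of the reads of Fbl, 52.9% of Tsr1, 77.6% of Ddx18 and 85.4% of Dimt1 were uniquely mapped, so their levels are uncertain. A protein-coding gene lies on the other strand over part of 16 members, none on the same strand, and without strand the reads of both partners cannot be told apart. These overlaps include 12804 bases of Pes1 with 4930556J24Rik, 2984 bases of Tsr1 with Srr, 2319 bases of Polr1e with Fbxo10, 2007 bases of Bop1 with Scx and 1229 bases of Dimt1 with Kif2a. Taf1d shares 235 bases with 4931406C07Rik, which held 42928 reads over the 12 libraries, against 67 to 137 reads per library for Taf1d itself. Emg1 (334 bases with Lpcat3), Rrp9 (987 bases with Parp3), Bysl (361 bases with Ccnd3) and Wdr12 (399 bases with Carf) are further cases. In 7 members, Dkc1, Gnl3, Ncl, Nop56, Nop58, Tsr1 and Wdr43, introns hold 21 snoRNA genes on the same strand.

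Promoter windows of the RefSeq annotation on GRCm38.p6, from 250 bases before to 50 bases after each start site, were on hand for 42 members. The E-box CACGTG, the same on both strands, was found in 8 of the 42 members (19.0%), against 8.09% of 27025 genes. Among members higher at ZT14 in the mean of both genotypes it was found in 5 of 23 (21.7%), and in the other members in 3 of 19 (15.8%). The D-box, TTATGTAA or TTACGTAA on either strand, was in none of the 42 members, against 1.23% of all genes. The median GC content of the 51 member windows was 59.7%, against 52.7% over 32851 windows. The 8 E-boxes are shown because they sit in the windows of members described below; each run of 30 bases is in the gene's own direction, with the E-box in capitals. A match is a description of the letters and not a binding site. The positions are chr1:34439696-34439725 (Imp4), chr10:13193092-13193121 (Ltv1), chr11:72441347-72441376 (Mybbp1a), chr6:125131811-125131840 (Nop2), chr11:3963965-3963994 (Pes1), chr11:74898092-74898121 (Tsr1), chr10:88826765-88826794 (Utp20) and chr17:71616220-71616249 (Wdr43), with Ltv1 and Utp20 on the minus strand.
Imp4: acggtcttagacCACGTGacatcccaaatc
Ltv1: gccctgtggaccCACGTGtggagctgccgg
Mybbp1a: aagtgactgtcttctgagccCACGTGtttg
Nop2: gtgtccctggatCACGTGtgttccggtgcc
Pes1: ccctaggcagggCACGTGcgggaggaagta
Tsr1: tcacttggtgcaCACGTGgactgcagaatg
Utp20: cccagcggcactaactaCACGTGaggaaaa
Wdr43: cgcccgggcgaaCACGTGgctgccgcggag
Counted from the start site as base 1, the E-box lay upstream in Imp4 (bases -121 to -116) and Nop2 (-60 to -55). In the other 6 genes it lay downstream, from base 3 in Pes1 to base 41 in Mybbp1a.

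Nop2, a methyltransferase of the large subunit RNA, had the smallest p of all members for the time difference in TG and in the mean of both genotypes. Its 200 bases upstream of the start site, chr6:125131683-125131882 on the plus strand, are shown as the longer context of the E-box that lies nearest upstream of a start site.
Nop2: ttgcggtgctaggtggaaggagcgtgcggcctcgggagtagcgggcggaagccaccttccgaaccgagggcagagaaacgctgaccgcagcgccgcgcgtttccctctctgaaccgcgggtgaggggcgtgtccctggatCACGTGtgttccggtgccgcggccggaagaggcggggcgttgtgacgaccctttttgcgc

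The first comparison was ZT14 against ZT2, which asks how these genes differ between the early dark and the early light phase. In the mean of both genotypes 25 of 48 members rose and 2, Polr1c and Emg1, fell, while 12.0% of all genes tested were called higher and 10.4% lower. The members' median log2 fold change was 0.29, against 0.00 for all genes, and 41 of 48 were above 0. The largest changes were those of Rrp12, Nolc1, Nop2, Nop56, Polr1a and Polr1b, at 1.11, 0.97, 0.95, 0.73, 0.71 and 0.69 on the log2 scale. In 13 members all 6 ZT14 libraries lay above all 6 ZT2 libraries, as did 5.90% of all genes tested. At ZT2 the summed CPM of the 48 members was 1104, 1060 and 981 (WT) and 1088, 1001 and 1028 (TG), and at ZT14 it was 1314, 1160 and 1188 (WT) and 1354, 1291 and 1348 (TG). No ZT14 sum fell into the ZT2 range.

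**Figure D1:**
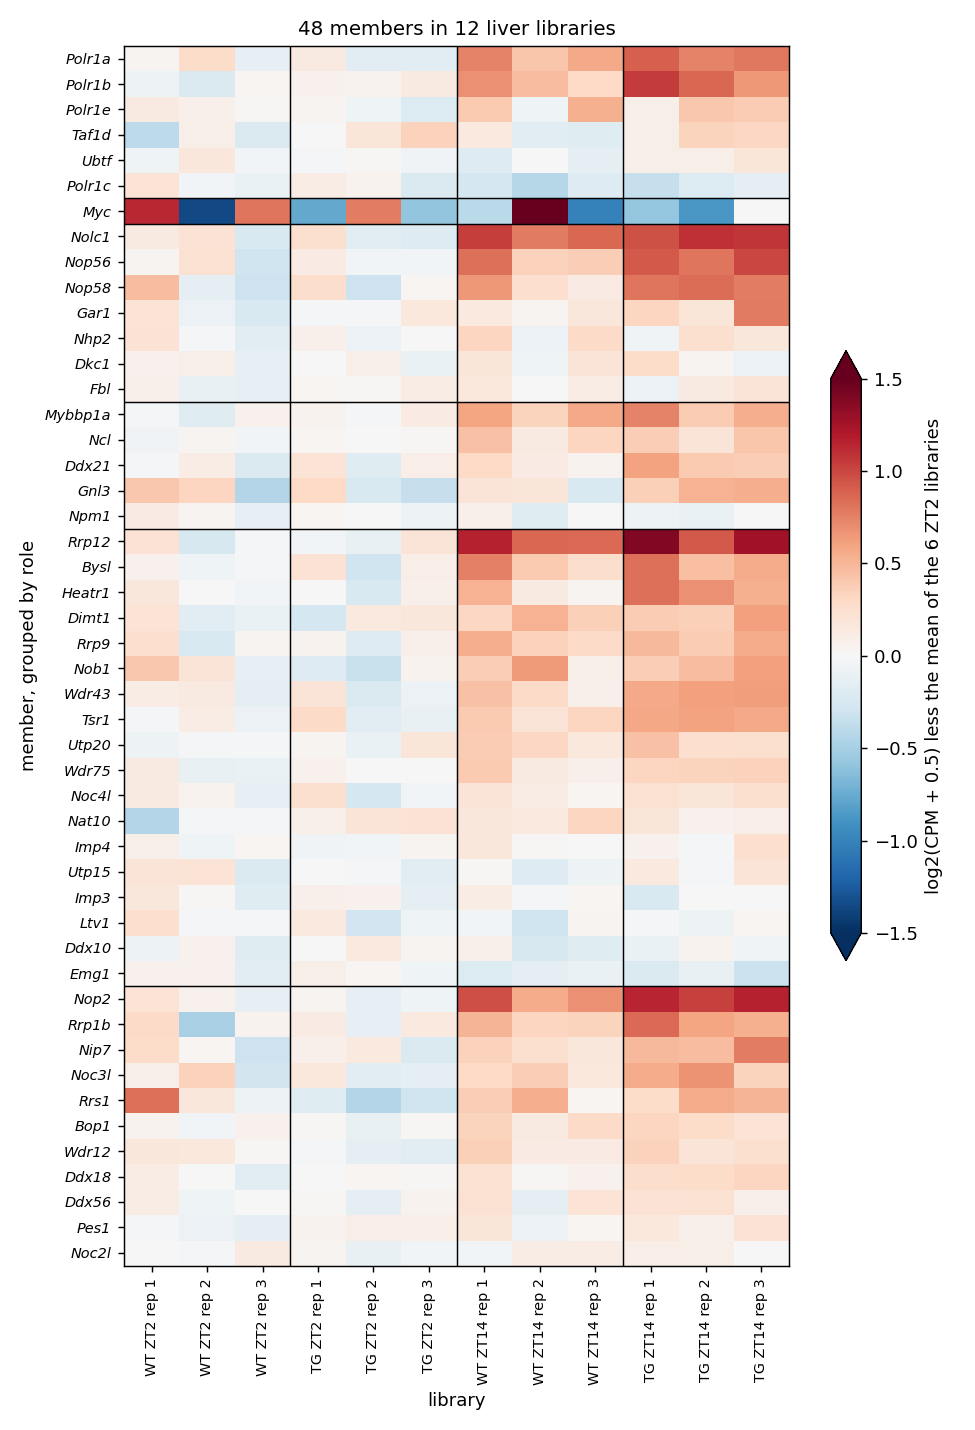
Each row is 1 of the 48 members, grouped by role, and each column 1 of the 12 libraries; the colour is log2(CPM + 0.5) less the mean of the 6 ZT2 libraries. The ZT14 columns are redder than the ZT2 columns in most rows, Polr1c and Emg1 are bluer, and Myc varies between replicates beyond the colour scale.

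Within WT alone, 8 members rose and none fell, against 4.85% of all genes called higher and 4.32% lower. Within TG alone, 22 members rose and none fell, against 6.70% of all genes called higher and 5.52% lower. All 8 members called in WT (Mybbp1a, Ncl, Nolc1, Nop2, Nop56, Polr1a, Polr1b and Rrp12) were also called in TG, and 14 passed in TG but not in WT. That difference in counts is not a tested difference between the genotypes; its own test is given below. The members' median log2 fold change was 0.21 in WT (0.005 over all genes) and 0.35 in TG (0.006), with a median SE of 0.12 in each.

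Several of these calls lay near the threshold and were lost when a single library was left out. For some, such as Nop56 and Ncl in WT, this held also for libraries of the other genotype. Leaving out WT ZT14 replicate 1 left 4 of the 8 WT calls, Mybbp1a, Nolc1, Nop2 and Rrp12, which were also the 4 that no omission removed. Without WT ZT14 replicate 3, WT ZT2 replicate 1 or WT ZT2 replicate 3, in turn, 5 calls were left. Over the 12 single omissions the WT call of Nop56 was lost in 9, that of Ncl in 8, that of Polr1a in 4 and that of Polr1b in 1. In TG, 11 calls were left without ZT2 replicate 2, 11 without ZT2 replicate 3, 12 without ZT14 replicate 1 and 14 without ZT14 replicate 2. Without TG ZT2 replicate 2 and TG ZT14 replicate 3 together, 7 of the 22 TG calls were left, 19 of the 27 in the mean of both genotypes, and 6 of the 8 in WT, where Bysl was called in addition. The TG calls of Heatr1, Mybbp1a, Nolc1, Nop2, Nop56, Polr1a, Polr1b, Rrp12, Tsr1 and Wdr43 held under every single omission, and of the 27 calls in the mean of both genotypes 18 did. The other 12 TG calls were lost in 3 (Bysl and Wdr12) to 8 (Rrp1b) of the 12 omissions.

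**Figure D2:**
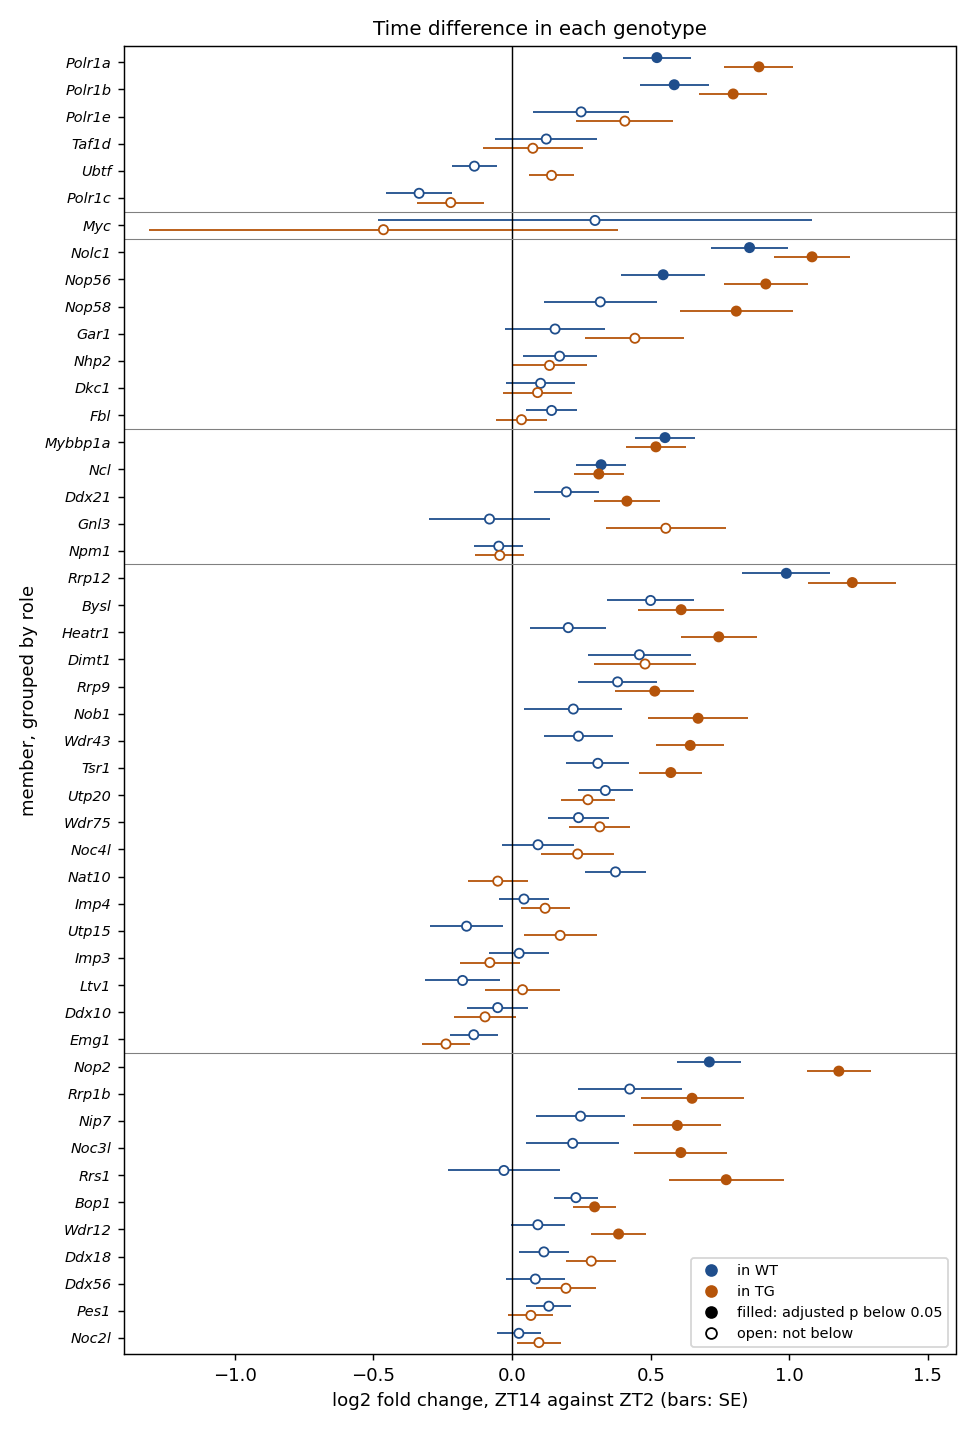
Points are the log2 fold change of ZT14 against ZT2 for each member in WT (blue) and TG (orange), bars are the SE, and filled points have an adjusted p below 0.05. Most points lie to the right of 0; 8 are filled in WT and 22 in TG.

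RNA polymerase I has its 2 largest subunits encoded by Polr1a and Polr1b, and both rose at ZT14 in each genotype. Polr1a was at 20.2, 23.99 and 18.05 CPM in WT and 21.6, 17.5 and 17.4 CPM in TG at ZT2, and at 33.3, 26.5 and 29.5 CPM in WT and 37.2, 33.3 and 34.5 CPM in TG at ZT14. Every ZT14 library was above every ZT2 library. The log2 fold change was 0.52 (adjusted p = 0.0195, with an SE of 0.12) in WT and 0.89 (adjusted p = 0.000769, with an SE of 0.12) in TG. Polr1a lies at chr6:71909053-71984935 (mm10, as for the other genes below). Polr1b was at 14.02, 12.7 and 15.1 CPM in WT and 15.5, 15.3 and 16.2 CPM in TG at ZT2, and at 23.96, 20.5 and 18.3 CPM in WT and 31.1, 27.2 and 23.5 CPM in TG at ZT14. The times did not overlap in either genotype, and the log2 fold change was 0.59 (adjusted p = 0.0108, with an SE of 0.12) in WT and 0.80 (adjusted p = 0.00147, with an SE of 0.12) in TG. Polr1b lies at chr2:129100995-129126594. Without WT ZT14 replicate 1 neither gene passed the test in WT; over all single omissions the adjusted p there reached 0.0936 for Polr1a and 0.0531 for Polr1b.

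Polr1c, a subunit that RNA polymerase I shares with RNA polymerase III, went the other way. Polr1c was at 18.1, 15.3 and 14.6 CPM in WT and 16.9, 16.2 and 13.4 CPM in TG at ZT2, and at 12.9, 11.5 and 13.6 CPM in WT and 12.3, 13.5 and 14.1 CPM in TG at ZT14. The WT times did not overlap, the TG times did, and the log2 fold change in the mean of both genotypes was -0.28 (adjusted p = 0.0331, with an SE of 0.08). Its call was lost in 7 of 12 single omissions, with an adjusted p of up to 0.0811, and with library sizes alone in place of TMM factors. Polr1e, a further subunit, did not pass. Polr1e was at 5.36, 5.13 and 4.91 CPM in WT and 5.02, 4.62 and 4.12 CPM in TG at ZT2, and at 6.50, 4.61 and 7.21 CPM in WT and 5.19, 6.58 and 6.44 CPM in TG at ZT14. Its log2 fold change was 0.33 (adjusted p = 0.0763, with an SE of 0.12) in the mean of both genotypes. Ubtf, which bends and marks the ribosomal DNA for the polymerase, did not pass either. Ubtf was at 54.9, 64.6 and 55.5 CPM in WT and 56.2, 57.9 and 55.3 CPM in TG at ZT2, and at 50.1, 57.3 and 51.9 CPM in WT and 61.04, 60.8 and 65.2 CPM in TG at ZT14. Its log2 fold change was -0.14 (adjusted p = 0.365, with an SE of 0.08) in WT and 0.14 (adjusted p = 0.306, with an SE of 0.08) in TG. Taf1d, a part of the promoter selectivity factor, was not called in any contrast. Taf1d was at 3.15, 4.62 and 3.62 CPM in WT and 4.27, 4.95 and 5.62 CPM in TG at ZT2, and at 4.82, 3.80 and 3.73 CPM in WT and 4.61, 5.57 and 5.45 CPM in TG at ZT14. These low values overlapped between the times in both genotypes.

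**Figure D3:**
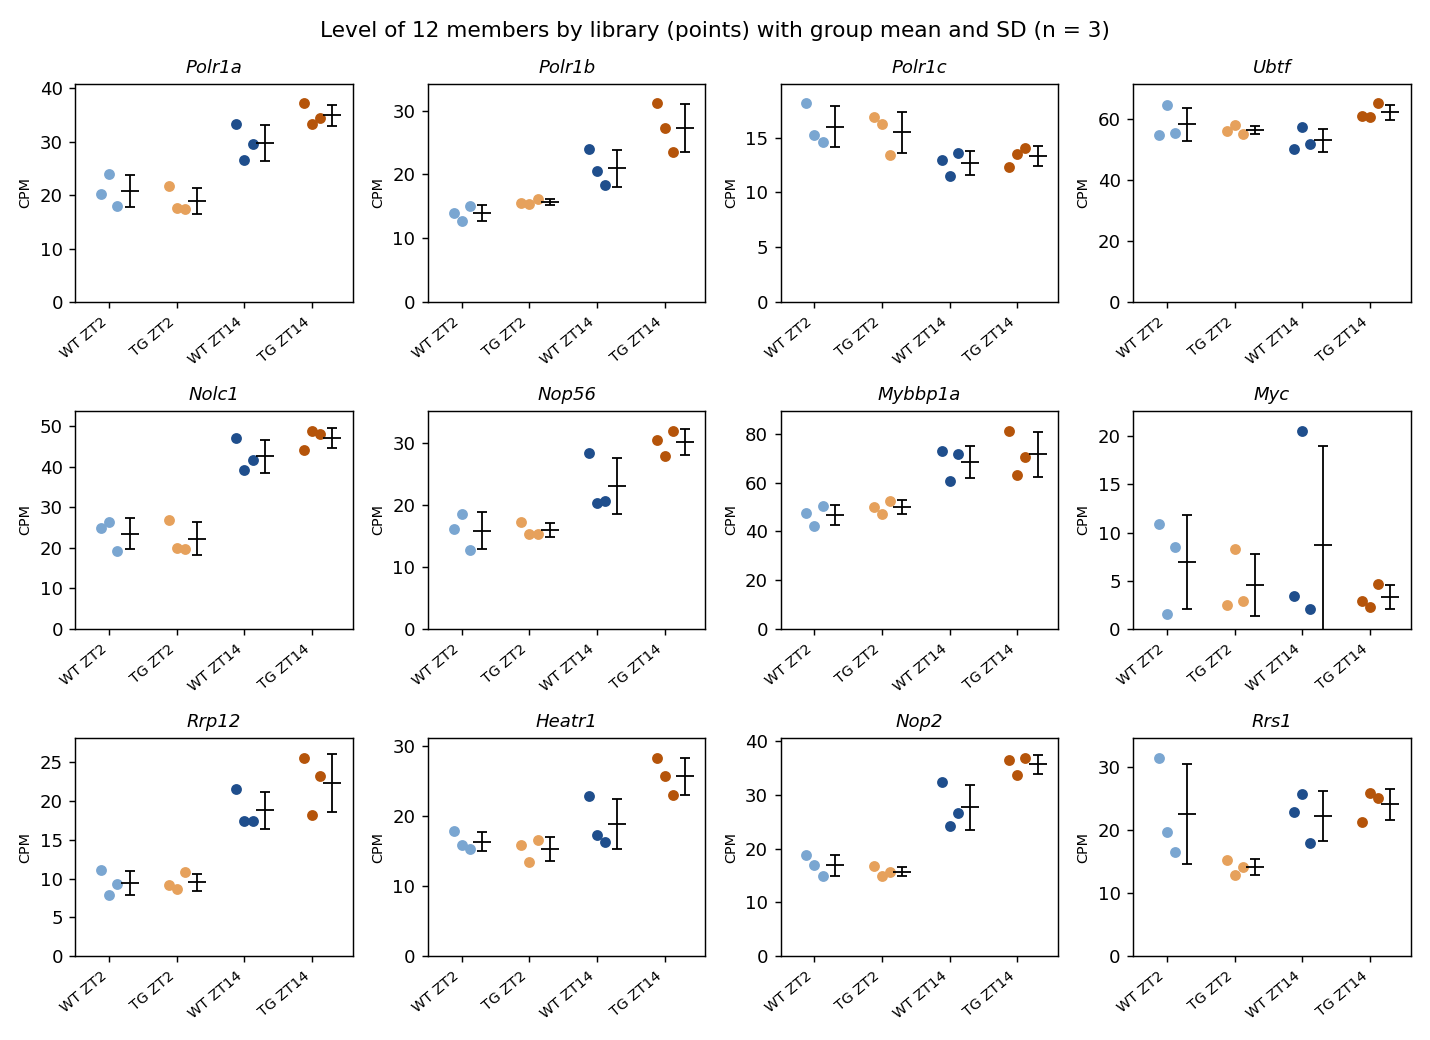
Each panel shows 1 of 12 members; points are the CPM of single libraries, and the bar beside them is the group mean with its SD (n = 3, and in Myc at ZT14 in WT the bar runs below 0 and is cut there). Polr1a, Polr1b, Nolc1, Nop56, Mybbp1a, Rrp12 and Nop2 are higher in all ZT14 libraries than in all ZT2 libraries, and Polr1c, Ubtf, Myc, Heatr1 and Rrs1 are not.

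Among the snoRNP proteins 3 of 7 rose at ZT14 in the mean of both genotypes (12.0% of all genes), and none fell (10.4%). Nolc1 is a nucleolar phosphoprotein that binds snoRNPs. Nolc1 was at 24.98, 26.3 and 19.3 CPM in WT and 26.9, 20.1 and 19.7 CPM in TG at ZT2, and at 47.1, 39.1 and 41.6 CPM in WT and 44.2, 48.9 and 47.99 CPM in TG at ZT14. All ZT14 libraries were above all ZT2 libraries, with a log2 fold change of 0.86 (adjusted p = 0.00206, with an SE of 0.14) in WT and 1.08 (adjusted p = 0.000454, with an SE of 0.14) in TG. Nolc1 lies at chr19:46075863-46085528. Nop56 and Nop58 are the core scaffold of box C/D snoRNPs, which guide methylation. Nop56 was at 16.2, 18.5 and 12.7 CPM in WT and 17.2, 15.3 and 15.2 CPM in TG at ZT2, and at 28.3, 20.2 and 20.5 CPM in WT and 30.4, 27.8 and 31.9 CPM in TG at ZT14. The 2 times were apart, and the log2 fold change was 0.55 (adjusted p = 0.0417, with an SE of 0.15) in WT and 0.92 (adjusted p = 0.00221, with an SE of 0.15) in TG. Nop58 was at 21.6, 14.1 and 12.5 CPM in WT and 18.8, 12.4 and 15.8 CPM in TG at ZT2, and at 24.7, 18.5 and 16.99 CPM in WT and 27.5, 28.1 and 26.9 CPM in TG at ZT14. The WT times overlapped and the TG times did not; the call in TG had a log2 fold change of 0.81 (adjusted p = 0.0223, with an SE of 0.20). The C/D methyltransferase Fbl and the H/ACA proteins Dkc1, Nhp2 and Gar1, which act in pseudouridine formation, did not pass. Their log2 fold changes in the mean of both genotypes were 0.09, 0.10, 0.15 and 0.30, with adjusted p from 0.115 (Gar1) to 0.48 (Dkc1).

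The nucleolar proteins of several roles rose at ZT14 in 3 of 5 cases in the mean of both genotypes (12.0% of all genes). Mybbp1a, a Myb-binding nucleolar protein, was called in both genotypes. Mybbp1a was at 47.4, 42.3 and 50.3 CPM in WT and 50.1, 47.1 and 52.5 CPM in TG at ZT2, and at 73.03, 60.8 and 71.6 CPM in WT and 81.2, 63.04 and 70.3 CPM in TG at ZT14. No overlap was seen between the times, and the log2 fold change was 0.55 (adjusted p = 0.00698, with an SE of 0.11) in WT and 0.52 (adjusted p = 0.00865, with an SE of 0.11) in TG. Nucleolin, which binds precursor RNA, was called too. Ncl was at 120.2, 129 and 122 CPM in WT and 128, 125 and 127 CPM in TG at ZT2, and at 170.0, 137 and 156 CPM in WT and 162, 143 and 167 CPM in TG at ZT14. The 6 ZT14 libraries were all above the 6 ZT2 libraries, with a log2 fold change of 0.32 (adjusted p = 0.00355, with an SE of 0.06) in the mean of both genotypes. Ddx21 is an RNA helicase of the nucleolus. Ddx21 was at 35.6, 38.9 and 31.02 CPM in WT and 41.5, 31.7 and 38.6 CPM in TG at ZT2, and at 44.3, 39.2 and 37.3 CPM in WT and 54.8, 47.4 and 46.8 CPM in TG at ZT14. The times overlapped in WT and not in TG, where the log2 fold change was 0.41 (adjusted p = 0.0386, with an SE of 0.12). The TG call of Ddx21 was lost in 6 of 12 single omissions and on exon reads alone. Npm1, the member with the highest level, was flat within its error at a log2 fold change of -0.05 (adjusted p = 0.653, with an SE of 0.06), and the GTPase Gnl3 did not pass at 0.24 (adjusted p = 0.311, with an SE of 0.15).

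Of the 18 small subunit factors 10 rose (12.0% of all genes) and 1 fell (10.4%) in the mean of both genotypes. Rrp12, a repeat protein that takes part in export and maturation of the subunits, had the largest change of all members. Rrp12 was at 11.1, 7.91 and 9.31 CPM in WT and 9.12, 8.69 and 10.8 CPM in TG at ZT2, and at 21.6, 17.5 and 17.4 CPM in WT and 25.6, 18.2 and 23.3 CPM in TG at ZT14. ZT2 and ZT14 did not overlap, and the log2 fold change was 0.99 (adjusted p = 0.00197, with an SE of 0.16) in WT and 1.23 (adjusted p = 0.000465, with an SE of 0.16) in TG. Rrp12 lies at chr19:41862852-41896153. Heatr1, a large repeat protein of the processome that also supports RNA polymerase I transcription, was called in TG. Heatr1 was at 17.8, 15.9 and 15.4 CPM in WT and 15.8, 13.4 and 16.6 CPM in TG at ZT2, and at 22.9, 17.3 and 16.3 CPM in WT and 28.3, 25.7 and 22.98 CPM in TG at ZT14. The WT times overlapped, the TG times did not, and the log2 fold change was 0.20 (adjusted p = 0.426, with an SE of 0.14) in WT and 0.75 (adjusted p = 0.00429, with an SE of 0.14) in TG. Heatr1 lies at chr13:12395398-12438677. Tsr1 and Bysl act late, on the nearly complete small subunit. Tsr1 was at 31.7, 35.2 and 30.6 CPM in WT and 39.9, 28.7 and 30.005 CPM in TG at ZT2, and at 42.7, 37.2 and 40.9 CPM in WT and 48.7, 49.4 and 48.5 CPM in TG at ZT14. Its log2 fold change in TG was 0.57 (adjusted p = 0.00651, with an SE of 0.11), with 35.5% of its reads in introns. Bysl was at 18.8, 17.03 and 17.6 CPM in WT and 20.9, 14.5 and 19.3 CPM in TG at ZT2, and at 30.4, 23.6 and 21.5 CPM in WT and 32.1, 24.6 and 26.6 CPM in TG at ZT14. All ZT14 libraries of Bysl were above all ZT2 libraries, and the log2 fold change in TG was 0.61 (adjusted p = 0.0239, with an SE of 0.16).

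Further small subunit factors were also called higher at ZT14. Wdr43 was called in TG. Wdr43 was at 20.9, 21.3 and 17.5 CPM in WT and 22.04, 16.5 and 18.1 CPM in TG at ZT2, and at 26.4, 23.7 and 20.4 CPM in WT and 28.9, 29.7 and 29.9 CPM in TG at ZT14. Its log2 fold change was 0.24 (adjusted p = 0.272, with an SE of 0.12) in WT and 0.64 (adjusted p = 0.00528, with an SE of 0.12) in TG. Rrp9, a protein of the U3 snoRNP, was called in TG as well. Rrp9 was at 8.84, 6.20 and 7.60 CPM in WT and 7.67, 6.38 and 7.81 CPM in TG at ZT2, and at 11.004, 9.52 and 9.09 CPM in WT and 10.5, 9.71 and 11.1 CPM in TG at ZT14. The 2 times were apart, and the log2 fold change in TG was 0.51 (adjusted p = 0.034, with an SE of 0.14). Nob1 is the endonuclease that makes the last cut of the small subunit RNA. Nob1 was at 9.92, 8.48 and 6.72 CPM in WT and 6.40, 5.77 and 7.65 CPM in TG at ZT2, and at 9.69, 11.8 and 7.85 CPM in WT and 9.67, 10.3 and 11.6 CPM in TG at ZT14. The WT times overlapped, the TG times did not, and the log2 fold change in TG was 0.67 (adjusted p = 0.0292, with an SE of 0.18). Utp20 and Wdr75 are members of the processome, and Dimt1 is a methyltransferase of the small subunit RNA. On total reads these genes passed only in the mean of both genotypes. There the log2 fold changes were 0.31 (adjusted p = 0.00775, with an SE of 0.07), 0.28 (adjusted p = 0.0224, with an SE of 0.08) and 0.47 (adjusted p = 0.0213, with an SE of 0.13). On exon reads Utp20 was also called higher at ZT14 in WT. Utp20 was at 17.1, 17.7 and 17.9 CPM in WT and 18.6, 16.9 and 20.7 CPM in TG at ZT2, and at 23.8, 22.5 and 20.3 CPM in WT and 24.9, 21.8 and 21.4 CPM in TG at ZT14. In Utp20 the times were apart within each genotype, in Wdr75 within TG only. Wdr75 was at 11.6, 9.68 and 9.77 CPM in WT and 11.1, 10.6 and 10.6 CPM in TG at ZT2, and at 14.01, 11.7 and 11.1 CPM in WT and 13.3, 13.4 and 13.5 CPM in TG at ZT14. Dimt1 was at 3.62, 2.72 and 2.84 CPM in WT and 2.48, 3.46 and 3.53 CPM in TG at ZT2, and at 3.96, 4.65 and 4.08 CPM in WT and 4.16, 4.09 and 4.97 CPM in TG at ZT14. For Dimt1 the times did not overlap, although it had 43 to 125 reads per library. The call of Wdr75 was lost in 4 of 12 single omissions, and that of Dimt1 in 2 and on exon reads alone.

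Emg1 was the one small subunit factor that fell. Emg1 was at 33.02, 32.98 and 28.1 CPM in WT and 33.5, 32.2 and 30.2 CPM in TG at ZT2, and at 27.5, 28.5 and 29.5 CPM in WT and 27.1, 29.1 and 25.1 CPM in TG at ZT14. The TG times did not overlap and the WT times did. Its log2 fold change in the mean of both genotypes was -0.19 (adjusted p = 0.0453, with an SE of 0.06), and the call was lost in 10 of 12 single omissions, with an adjusted p of up to 0.107, and with library sizes alone. Nat10, an acetyltransferase of the small subunit RNA, did not pass on total reads and was called higher at ZT14 in WT on exon reads. Nat10 was at 18.6, 25.1 and 25.1 CPM in WT and 27.1, 29.2 and 29.6 CPM in TG at ZT2, and at 28.9, 28.2 and 31.9 CPM in WT and 28.97, 26.6 and 27.4 CPM in TG at ZT14. The log2 fold change was 0.37 (adjusted p = 0.0521, with an SE of 0.11) in WT and -0.05 (adjusted p = 0.811, with an SE of 0.11) in TG. Utp15, Noc4l, Imp3, Imp4, Ltv1 and Ddx10 did not pass, with log2 fold changes between -0.07 (Ddx10) and 0.17 (Noc4l) in the mean of both genotypes.

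Of the 11 large subunit factors 7 rose (12.0% of all genes) and none fell (10.4%) in the mean of both genotypes. All 11 had a positive log2 fold change there, as did 50.2% of all genes. Nop2 had the smallest adjusted p of all members in TG and in the mean of both genotypes; in WT those of Rrp12 and Nolc1 were smaller. Nop2 was at 18.8, 17.03 and 14.9 CPM in WT and 16.7, 14.95 and 15.6 CPM in TG at ZT2, and at 32.3, 24.2 and 26.6 CPM in WT and 36.4, 33.6 and 36.9 CPM in TG at ZT14. No overlap was seen between the times, and the log2 fold change was 0.71 (adjusted p = 0.00218, with an SE of 0.12) in WT and 1.18 (adjusted p = 7.7e-05, with an SE of 0.12) in TG. Nop2 lies at chr6:125131909-125144753. Rrp1b binds a nucleolar phosphatase. Rrp1b was at 7.20, 3.99 and 6.05 CPM in WT and 6.35, 5.28 and 6.47 CPM in TG at ZT2, and at 8.503, 7.39 and 7.42 CPM in WT and 10.8, 8.99 and 8.59 CPM in TG at ZT14. The 6 ZT14 libraries were all above the 6 ZT2 libraries, with a log2 fold change of 0.65 (adjusted p = 0.0394, with an SE of 0.19) in TG. Nip7 and Noc3l act in early large subunit assembly. Nip7 was at 10.6, 8.86 and 6.88 CPM in WT and 9.17, 9.67 and 7.43 CPM in TG at ZT2, and at 11.2, 10.3 and 9.82 CPM in WT and 12.4, 12.2 and 15.1 CPM in TG at ZT14. Noc3l was at 7.95, 9.56 and 6.05 CPM in WT and 8.37, 6.54 and 6.63 CPM in TG at ZT2, and at 9.23, 9.73 and 8.37 CPM in WT and 11.2, 12.2 and 9.50 CPM in TG at ZT14. Both overlapped between the times in WT and not in TG, where the log2 fold changes were 0.60 (adjusted p = 0.0289, with an SE of 0.16) and 0.61 (adjusted p = 0.0331, with an SE of 0.17).

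Bop1, Pes1 and Wdr12 form one complex (PeBoW) that is needed for the large subunit RNA. Bop1 was at 29.02, 27.3 and 29.4 CPM in WT and 28.4, 26.001 and 28.3 CPM in TG at ZT2, and at 35.6, 30.7 and 34.3 CPM in WT and 35.2, 34.01 and 32.4 CPM in TG at ZT14. ZT2 and ZT14 did not overlap, with a log2 fold change of 0.30 (adjusted p = 0.0273, with an SE of 0.08) in TG. The TG call of Bop1 was lost in 5 of 12 single omissions and on exon reads alone. Wdr12 was at 16.3, 16.1 and 14.6 CPM in WT and 14.2, 12.97 and 12.8 CPM in TG at ZT2, and at 18.7, 15.8 and 15.7 CPM in WT and 18.5, 16.5 and 17.1 CPM in TG at ZT14. The times overlapped in WT and not in TG, where the log2 fold change was 0.38 (adjusted p = 0.0239, with an SE of 0.10). Pes1 was at 27.7, 26.6 and 25.6 CPM in WT and 29.4, 30.4 and 30.2 CPM in TG at ZT2, and at 32.2, 26.6 and 28.9 CPM in WT and 31.5, 29.9 and 32.9 CPM in TG at ZT14. Pes1 overlapped between the times and did not pass, at 0.10 (adjusted p = 0.25, with an SE of 0.06) in the mean of both genotypes. Rrs1, which brings the 5S particle to the subunit, was called in TG. Rrs1 was at 31.4, 19.7 and 16.5 CPM in WT and 15.3, 12.8 and 14.2 CPM in TG at ZT2, and at 22.8, 25.7 and 17.9 CPM in WT and 21.3, 25.9 and 25.01 CPM in TG at ZT14. The first WT library at ZT2 was higher than every ZT14 library, and the log2 fold change was -0.03 (adjusted p = 0.957, with an SE of 0.20) in WT and 0.77 (adjusted p = 0.0297, with an SE of 0.21) in TG. Ddx18, a helicase, passed in the mean of both genotypes only, at 0.20 (adjusted p = 0.0408, with an SE of 0.06), and lost that call in 10 of 12 single omissions. Ddx18 was at 18.8, 17.3 and 15.5 CPM in WT and 17.2, 17.6 and 17.6 CPM in TG at ZT2, and at 20.3, 17.5 and 18.1 CPM in WT and 20.96, 21.1 and 21.8 CPM in TG at ZT14. Its times overlapped in WT and not in TG. Noc2l and the helicase Ddx56 did not pass, at 0.06 (adjusted p = 0.486, with an SE of 0.06) and 0.14 (adjusted p = 0.219, with an SE of 0.08).

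The second comparison was TG against WT, which asks whether the members differ with the transgene. Called members were 0 of 48 at ZT2, at ZT14 and in the mean of both times, by edgeR's quasi-likelihood test, by DESeq2 and by limma-voom, while 0.0722%, 0.0853% and 0.144% of all genes tested were called. At ZT2, 3 members had an unadjusted p below 0.05 (6.25% of members, against 7.56% of all genes), and at ZT14 10 did (20.8%, against 6.91%). The members' median log2 fold change was -0.02 at ZT2 (-0.003 over all genes), with 20 of 48 above 0 (49.2% of all genes). At ZT14 it was 0.11 (0.007 over all genes), with 39 of 48 above 0 (51.6% of all genes). The median SE was 0.13 and 0.12, so a difference of 0.25 and 0.24 on the log2 scale corresponds to 2 SE of a typical member. The test does not show that the genotypes are alike.

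At ZT14 all 3 TG libraries were above all 3 WT libraries in 12 of 48 members, as in 6.12% of all genes tested, and below in none, as in 6.32% of all genes. The 12 were Ubtf, Nop58, Gar1, Gnl3, Ddx21, Wdr43, Heatr1, Tsr1, Nop2, Rrp1b, Ddx18 and Nip7. The smallest p were those of Heatr1, at a log2 fold change of 0.44 (adjusted p = 0.541, with an SE of 0.13), Nop2, at 0.36 (adjusted p = 0.563, with an SE of 0.11), and Polr1b, at 0.38 (adjusted p = 0.576, with an SE of 0.12). Ubtf, Wdr43 and Nop56 followed at 0.23 (adjusted p = 0.627, with an SE of 0.08), 0.33 (adjusted p = 0.638, with an SE of 0.12) and 0.38 (adjusted p = 0.644, with an SE of 0.15). None of them passed.

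At ZT2 the TG libraries were above the WT libraries in 3 members, Polr1b, Nat10 and Pes1, as in 6.25% of all genes, and below in 2, Wdr12 and Rrs1, as in 5.86%. Rrs1 had the smallest p, at a log2 fold change of -0.68 (adjusted p = 0.517, with an SE of 0.21), and its first WT library of 31.4 CPM stood apart from the other 2 at 19.7 and 16.5 CPM. Nat10 was at 0.32 (adjusted p = 0.564, with an SE of 0.11) and Wdr12 at -0.23 (adjusted p = 0.639, with an SE of 0.10). Taf1d, Pes1 and Nob1 were at 0.39 (adjusted p = 0.675, with an SE of 0.19), 0.17 (adjusted p = 0.68, with an SE of 0.08) and -0.34 (adjusted p = 0.7, with an SE of 0.18). In the mean of both times the smallest p were those of Polr1b, at 0.28 (adjusted p = 0.464, with an SE of 0.09), and Taf1d, at 0.37 (adjusted p = 0.48, with an SE of 0.13).

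**Figure D4:**
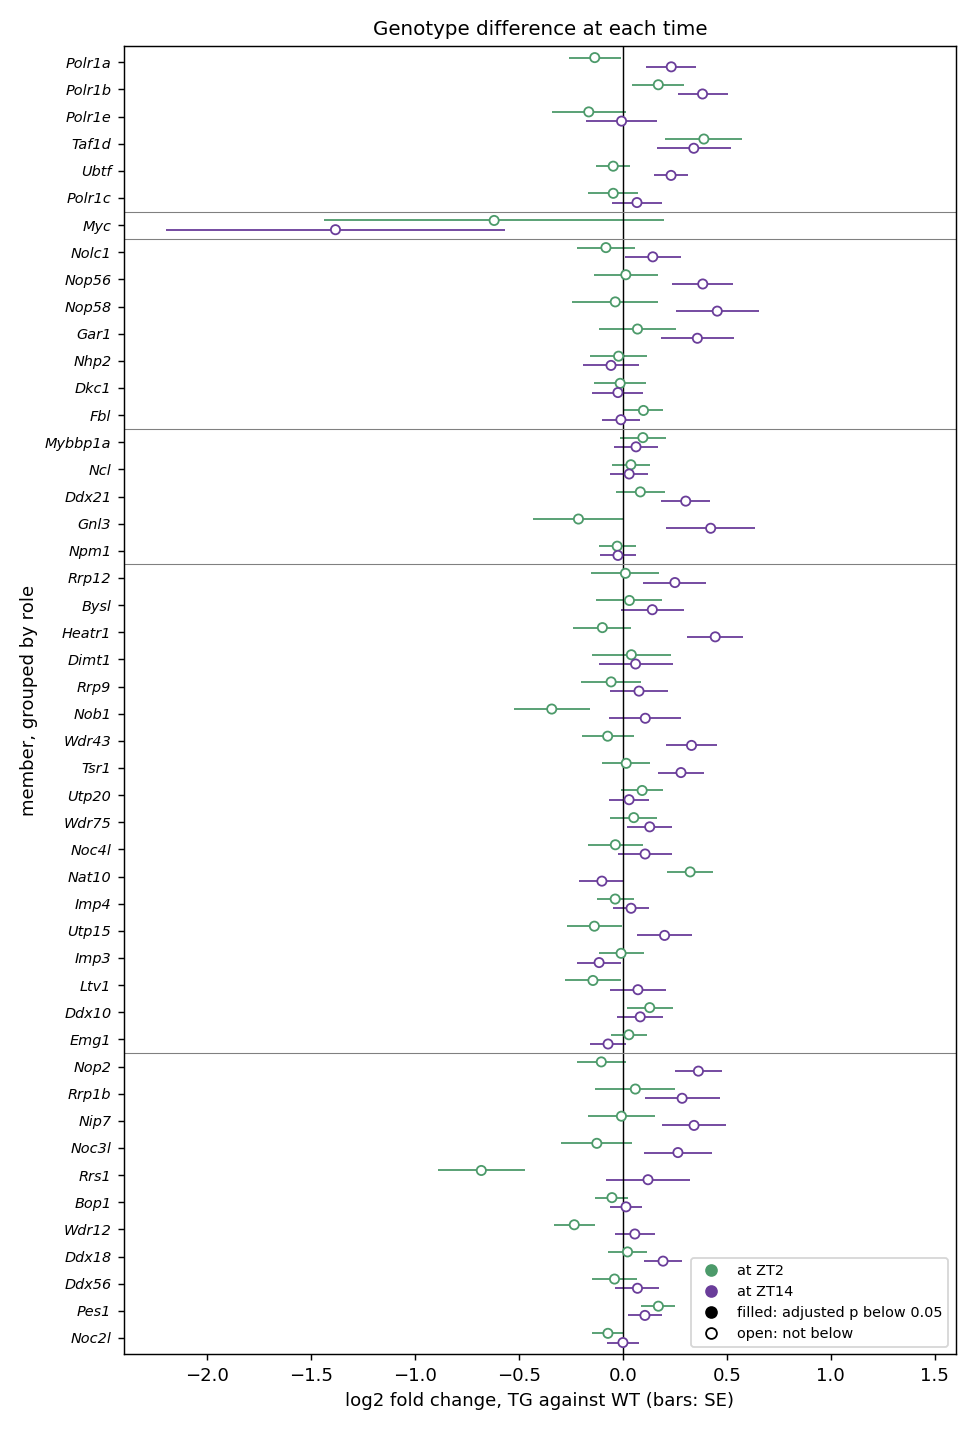
Points are the log2 fold change of TG against WT for each member at ZT2 (green) and ZT14 (purple), bars are the SE, and all points are open because none had an adjusted p below 0.05. At ZT14 most points lie to the right of 0, where 39 of 48 are positive.

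The third comparison set the ZT14 against ZT2 difference of TG against that of WT in an interaction term (TG value less WT value). It was called in 0 of 48 members by edgeR, DESeq2 and limma-voom, with 0.00656% of all genes called, and 6 members had an unadjusted p below 0.05 (12.5%, against 5.98% of all genes). The members' median was 0.15 (0.002 over all genes), and 35 of 48 members were above 0 (50.4% of all genes). On the log2 scale Nop2 was at 0.47 (adjusted p = 0.751, with an SE of 0.16), Heatr1 at 0.54 (adjusted p = 0.751, with an SE of 0.19), Rrs1 at 0.80 (adjusted p = 0.751, with an SE of 0.29) and Nat10 at -0.42 (adjusted p = 0.751, with an SE of 0.15). The 14 members that passed in TG and not in WT were therefore not shown to differ between the genotypes.

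Myc, the transcription factor of the set, was at a low and uneven level. Myc was at 10.9, 1.52 and 8.53 CPM in WT and 2.54, 8.30 and 2.94 CPM in TG at ZT2, and at 3.41, 20.6 and 2.06 CPM in WT and 2.96, 2.32 and 4.69 CPM in TG at ZT14. The highest library, WT ZT14 replicate 2, was at 20.6 CPM while the other 2 of its group were at 3.41 and 2.06 CPM, and the groups overlapped. The log2 fold change was 0.30 (adjusted p = 0.875, with an SE of 0.78) for time in WT, -0.46 (adjusted p = 0.778, with an SE of 0.84) for time in TG and -1.38 (adjusted p = 0.757, with an SE of 0.82) for TG against WT at ZT14. Of all genes tested, 12.0% were called higher at ZT14 and 10.4% lower in the mean of both genotypes. In the wider network of Myc, Max and Mlx genes, not all of them partners of Myc itself, 4 of 11 tested rose there and none fell. By log2 fold change they were Max at 0.41 (adjusted p = 0.00124, with an SE of 0.07), Mlx at 0.36 (adjusted p = 0.000842, with an SE of 0.06), Mxi1 at 0.27 (adjusted p = 0.00469, with an SE of 0.06) and Mycn at 1.5 (adjusted p = 0.0241, with an SE of 0.43). Max was at 15.5, 19.1 and 15.3 CPM in WT and 16.6, 16.5 and 15.2 CPM in TG at ZT2, and at 23.01, 20.7 and 20.5 CPM in WT and 22.03, 22.96 and 21.2 CPM in TG at ZT14. No ZT14 library of Max overlapped with ZT2. Mycn was at 0.611, 2.09 and 0.672 CPM in WT and 0.808, 1.15 and 1.44 CPM in TG at ZT2, and at 6.002, 1.79 and 5.75 CPM in WT and 2.28, 3.54 and 0.835 CPM in TG at ZT14. Mycn values were low, and the times overlapped.

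Immediate early genes, which respond within minutes to stimuli and handling, fell in 4 of 11 and rose in 2 at ZT14 in the mean of both genotypes. Of all genes tested, 10.4% were called lower and 12.0% higher there. Egr1 was at 50.8, 25.5 and 91.7 CPM in WT and 61.4, 139 and 25.6 CPM in TG at ZT2, and at 4.27, 1.88 and 4.16 CPM in WT and 2.96, 6.96 and 7.55 CPM in TG at ZT14. Egr1 was lower in every ZT14 library, at a log2 fold change of -3.86 (adjusted p = 8.82e-05, with an SE of 0.46). Junb was at 31.5, 27.9 and 33.9 CPM in WT and 38.9, 36.01 and 22.2 CPM in TG at ZT2, and at 15.3, 13.2 and 11.5 CPM in WT and 9.31, 11.2 and 28.6 CPM in TG at ZT14. The log2 fold change of Junb was -1.10 (adjusted p = 0.00612, with an SE of 0.24), that of Ier2 -0.45 (adjusted p = 0.0241, with an SE of 0.13) and that of Klf6 -0.53 (adjusted p = 0.0311, with an SE of 0.16). Atf3 rose by 0.96 (adjusted p = 0.0137, with an SE of 0.24) and Dusp1 by 1.12 (adjusted p = 0.0295, with an SE of 0.33) on the same scale. Of 16 cell cycle genes tested, Ccne1 and Ccne2 rose and Plk1 fell, with log2 fold changes of 1.74 (adjusted p = 3.52e-05, with an SE of 0.18), 1.23 (adjusted p = 0.0129, with an SE of 0.31) and -1.01 (adjusted p = 0.0118, with an SE of 0.25). For a list of 16 genes, 2 called higher and 1 called lower are near the shares of all genes. Ccne1 was at 0.753, 1.01 and 0.827 CPM in WT and 0.404, 0.550 and 0.428 CPM in TG at ZT2, and at 2.05, 1.71 and 1.72 CPM in WT and 2.82, 1.90 and 2.66 CPM in TG at ZT14. Mki67 was not called, and Ccne1 stayed under 3 CPM in every library. The part of these genes in the members' time difference was not tested.

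Exon and intron reads were then set apart, since intron reads come mostly from unspliced RNA. On exon reads 23 members were higher at ZT14 in the mean of both genotypes (13.0% of all genes) and 2 lower (11.5%). In WT 10 members were higher (5.45% of all genes) and none lower (5.34%), and in TG 20 were higher (7.38%) and 1, Emg1, lower (5.63%). For TG against WT exon reads called 0 members by edgeR at ZT2 (0.0683% of all genes) and at ZT14 (0.091%). They called 0 for the difference between the genotypes in their time difference too (0.00758%). At an unadjusted p below 0.05 stood 4 members at ZT2 (8.33%, against 7.65% of all genes), 10 at ZT14 (20.8%, against 7.80%) and 5 for the difference between the genotypes (10.4%, against 6.10%). Intron reads could be tested in 43 members. In TG 3 of the 43 rose on intron reads, Nop2, Nolc1 and Bop1, against 2.86% of all genes tested, and none fell (1.76%). In WT 0 were called by edgeR (1.32% of all genes called higher), with 3 at an unadjusted p below 0.05 (6.98% of members, against 14.3% of all genes). In the mean of both genotypes 7 rose, Nolc1, Nop2, Bop1, Ddx21, Mybbp1a, Rrp12 and Dimt1, against 6.75% of all genes, and none fell (3.44%). With the replicate number as a block 3 of these 7 calls were left, those of Nolc1, Nop2 and Bop1. Introns held 35.6% of the reads of Dimt1, and without strand these cannot be told apart from reads of Kif2a where both genes overlap. The difference between the genotypes in their time difference was called in 0 on intron reads (0.00808% of all genes; 8 of 43 at an unadjusted p below 0.05, or 18.6%, against 5.28% of all genes).

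Intron reads of Nop2 were at 2.49, 2.60 and 2.12 CPM in WT and 0.923, 1.43 and 1.12 CPM in TG at ZT2, and at 2.18, 3.42 and 2.15 CPM in WT and 2.87, 3.33 and 3.26 CPM in TG at ZT14. All TG libraries at ZT14 were above all TG libraries at ZT2. The intron log2 fold change in TG was 1.44 (adjusted p = 0.00553, with an SE of 0.25), and its exon counterpart was 1.16 (adjusted p = 0.000163, with an SE of 0.13). Intron reads of Nolc1 were at 1.03, 1.14 and 0.879 CPM in WT and 0.635, 0.385 and 0.695 CPM in TG at ZT2, and at 1.14, 2.48 and 1.84 CPM in WT and 1.30, 1.73 and 2.86 CPM in TG at ZT14. The intron log2 fold change in TG was 1.78 (adjusted p = 0.0175, with an SE of 0.38). Intron reads of Bop1 were at 2.78, 2.47 and 1.71 CPM in WT and 0.981, 0.825 and 1.44 CPM in TG at ZT2, and at 2.27, 3.42 and 3.09 CPM in WT and 2.24, 2.62 and 3.42 CPM in TG at ZT14. For Bop1 it was 1.34 (adjusted p = 0.0168, with an SE of 0.28), where the exon value was 0.23 (adjusted p = 0.114, with an SE of 0.09). In TG 1 intron call in place of 3 was made without TG ZT2 replicate 1, TG ZT2 replicate 2 or TG ZT14 replicate 3, each in turn, and without the last 2 together. The 7 intron calls in the mean of both genotypes numbered 3 to 4 when any of 8 libraries was left out: each TG library except ZT2 replicate 3, WT ZT2 replicates 2 and 3, and WT ZT14 replicate 2. On exon reads the WT calls numbered 5 or 6 without WT ZT2 replicate 1, WT ZT2 replicate 3 or WT ZT14 replicate 1, and the TG calls 11 or 12 without TG ZT2 replicate 2 or 3.

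For TG against WT, intron reads gave 0 calls in 43 members by edgeR at ZT2 and at ZT14, with 0.0242% and 0.0323% of all genes called. At ZT2 9 members had an unadjusted p below 0.05 (20.9%, against 8.68% of all genes), of which 8 were lower in TG and 1, Nat10, higher. The median intron log2 fold change was -0.29, against 0.04 for all genes, and 31 of 43 were below 0. Over all genes, introns held 11.5% to 11.9% of the reads in the WT libraries at ZT2 and 10.5% to 11.4% in the TG libraries. The TG shares were all lower, and their part in the members' values was not tested. The smallest p were those of Nop2, at an intron log2 fold change of -1.04 (adjusted p = 0.302, with an SE of 0.25), Bysl at -2.57 (adjusted p = 0.302, with an SE of 0.67), Bop1 at -1.09 (adjusted p = 0.311, with an SE of 0.29) and Heatr1 at -1.23 (adjusted p = 0.312, with an SE of 0.33). Intron reads of Heatr1 were at 3.15, 2.28 and 2.17 CPM in WT and 0.692, 1.43 and 1.12 CPM in TG at ZT2, and at 2.41, 1.92 and 1.54 CPM in WT and 1.52, 3.08 and 1.75 CPM in TG at ZT14. All 3 TG libraries at ZT2 were below all 3 WT libraries there. Intron reads numbered 12 to 73 per library in Heatr1, 16 to 82 in Nop2, 15 to 86 in Bop1 and 0 to 19 in Bysl, so these values rest on few reads. At ZT14 the median was 0.03, and 1 member had an unadjusted p below 0.05. The smallest adjusted p at ZT2 was 0.302, so no member passed. With no filter beyond 1 read, 4 members, Bop1, Bysl, Heatr1 and Nop2, were called lower in TG at ZT2, as were 0.519% of the 24683 genes then tested.

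**Figure D5:**
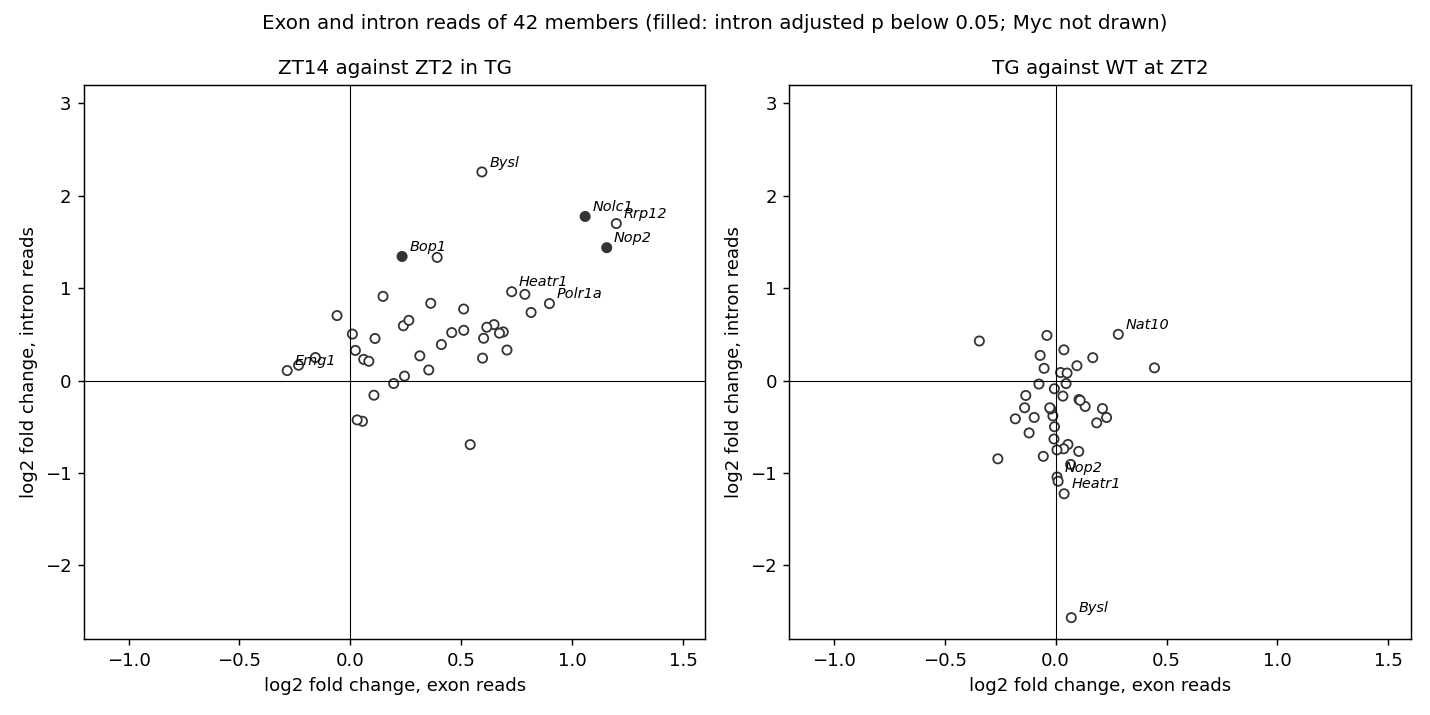
Each point is 1 of 42 members (Myc, also tested on intron reads, is not drawn); the x axis is the log2 fold change of exon reads and the y axis that of intron reads, for ZT14 against ZT2 in TG (left) and TG against WT at ZT2 (right), and filled points have an intron adjusted p below 0.05. Nop2, Nolc1 and Bop1 are filled on the left; on the right most points lie below 0 on the y axis and near 0 on the x axis.

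Other genes of ribosome production were counted in the same way, for the mean of both genotypes, in lists that hold none of the members. Of all genes tested, 12.0% were called higher and 10.4% lower in this comparison. Of 38 other small subunit processome genes, 16 rose and 2 fell; Pdcd11, Nol10, Rrp8, Wdr3, Wdr36 and Nop14 had the smallest p among those that rose, at log2 fold changes of 0.74, 0.63, 0.54, 0.45, 0.42 and 0.40. Pdcd11 was at 22.4, 23.3 and 21.5 CPM in WT and 21.9, 19.8 and 23.8 CPM in TG at ZT2, and at 35.1, 31.6 and 32.9 CPM in WT and 44.7, 38.4 and 40.4 CPM in TG at ZT14. No ZT14 library of Pdcd11 overlapped with ZT2. Rcl1 and Ddx52 fell, at -0.62 and -0.40. Of 52 other large subunit factors, 21 rose and 2 fell, led by Urb1, Spata5, Ftsj3, Mdn1, Mrto4 and Grwd1 at 0.74, 0.54, 0.47, 0.50, 0.38 and 0.58. Gltscr2 and Zfp622 fell, at -0.30 and -0.31. The medians of these 2 lists were 0.13 and 0.20, against 0.00 for all genes and 0.29 for the members.

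Other RNA polymerase I genes rose in 4 of 14 (Ttf1, Taf1c, Polr2h and Cd3eap, at 0.67, 1.13, 0.41 and 0.44) and fell in 1 (Taf1b, at -0.70). Taf1c was at 4.66, 3.16 and 4.08 CPM in WT and 4.15, 4.67 and 5.35 CPM in TG at ZT2, and at 9.05, 9.18 and 7.94 CPM in WT and 9.40, 12.1 and 9.62 CPM in TG at ZT14. Taf1c, a part of the same promoter factor as Taf1d, did not overlap between the times. Ttf1 was at 14.7, 12.2 and 13.1 CPM in WT and 12.9, 13.7 and 13.3 CPM in TG at ZT2, and at 20.7, 21.4 and 19.5 CPM in WT and 24.1, 21.01 and 20.9 CPM in TG at ZT14. Ttf1, which ends transcription of the ribosomal DNA, did not overlap either. RNA polymerase III and 5S genes rose in 6 of 22 (Crcp, Gtf3a, Polr3a, Polr3g, Polr3e and Gtf3c1) and fell in 1, Maf1, the repressor of that polymerase, at -0.36 (adjusted p = 0.00591, with an SE of 0.08). In snoRNP assembly genes 0 of 13 were called by edgeR, and 2 had an unadjusted p below 0.05, against 34.2% of all genes. In each of these lists edgeR called 0 genes between the genotypes, whether at ZT2, at ZT14 or in the mean of both times. Of all genes tested 0.0722%, 0.0853% and 0.144% were called there. An unadjusted p below 0.05 was found in at most 5 genes of a list, and in 7.56%, 6.91% and 8.82% of all genes.

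Libraries of a group differed in the members as a whole. WT ZT14 replicate 1 was the highest of its group in 34 of 48 members, where it was highest in 34.6% of all genes, and WT ZT2 replicate 1 in 29 of 48 (32.2% of all genes). TG ZT2 replicate 1 was highest in 26 of 48 (31.8%) and TG ZT14 replicate 3 in 22 of 48 (34.1%). The share of the members' reads that lay in introns ran from 6.09% to 9.25% over the 12 libraries.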

How the data were processed

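Per the labels' protocols, 850 ng of total RNA per sample entered poly(A) selection and library making (NEBNext Ultra RNA kit). For each gene of each library the authors deposited read counts (total, exon and intron reads, with unique reads apart) and a TPM value; both units are named per the file headers. The builds mm10 and GRCm38 are named per the submitters' processing notes; of aligner, counter and strandedness nothing is given in the sources used here. The total count of a gene is the sum of its exon and intron reads, and the deposited TPM was used only to rank levels between genes.

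Counts were tested with edgeR 4.0.16 (R 4.3.3; limma 3.58.1) in 1 model over 4 groups and 12 libraries. Genes were kept by filterByExpr (minimum count 10, minimum total 15), scaled by TMM and tested by quasi-likelihood with Benjamini-Hochberg adjustment over all 15244 genes; the SE is the absolute log2 fold change over the square root of F. Exon and intron reads were fitted apart, with the library sizes and TMM factors of total reads. The steps were tested on simulated data. Alternatives were DESeq2 1.42.0, limma-voom, RLE factors, library sizes alone, other filters, unique reads, exon reads alone, the compared groups alone, a stricter threshold, a replicate block and leaving out libraries. Precision depends on total gene reads per library, 16035121 to 23981021, and on the spread between the replicates of a group.

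The members and lists were chosen with earlier results of these data known. Values in every library are given for members called in any contrast, for Polr1a, Polr1b, Polr1c, Polr1e, Ubtf and Myc, and for the 6 members with the smallest p in each contrast; list genes are named where called, at most 6 a list and contrast. Replicate numbers in the labels were not used as pairs in the main model. Same-numbered libraries had correlations of their deviations from group means between -0.253 and 0.154. The highest value between groups, 0.433, was that of TG ZT2 replicate 2 with TG ZT14 replicate 3. With 3 replicates in a group, such correlations cannot decide whether same-numbered libraries were handled together.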

Additional observations from a re-analysis of the deposited data

How the results depend on the processing

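Alternatives changed the number of members called, and no named member's log2 fold change changed sign where it was called. For members called in a contrast or among its 6 smallest p, 1824 values under alternatives were compared, of which 1646 kept their direction and side of the threshold and 178 lost a call. The 1824 include members named for the genotype and interaction contrasts, which had no call to lose. The share of losses among called members was therefore higher than 178 of 1824. Calls gained by other members are not in these numbers: in WT, Utp20, Tsr1, Bysl and Nat10 each gained a call in 1 single omission. For time in WT, 8 members were called; the count was 13 with library sizes alone (Bop1, Bysl, Nat10, Tsr1 and Utp20 in addition), 11 with DESeq2, 9 with limma-voom, unique reads or no filter, 8 with RLE factors or 1 CPM in 3 samples, 4 at an adjusted p of 0.01 and 4 to 8 when single libraries were left out. For time in TG, 22 were called; it was 22 with DESeq2, limma-voom, RLE factors, unique reads or 1 CPM in 3 samples, 20 with no filter, 24 with library sizes alone, 10 at 0.01, 7 without TG ZT2 replicate 2 and TG ZT14 replicate 3 together, and 11 to 24 with single libraries left out. In the mean of both genotypes 27 were called, with 15 at 0.01, 26 with DESeq2 or RLE factors, 24 with no filter, 27 with limma-voom or unique reads and, with library sizes alone, 27 higher and 0 lower. Ddx18 lost this call with DESeq2, RLE factors, unique reads, exon reads alone and no filter. Fitting only the 2 groups compared gave 6 in WT and 19 in TG. The replicate block left the total-read counts at 8, 22 and 27, with Bysl in place of Ncl in WT. On intron reads with no filter beyond 1 read, 4 members were lower in TG at ZT2 (0.519% of all genes), 1, Myc, was lower at ZT14 (0.235%) and 8 were higher for time in TG (2.48%). The intron time count in TG, 3 members, was 1 without both libraries named above and 1 to 4 with single libraries left out. In the mean of both genotypes the intron count, 7, was 3 with the replicate block, 2 without both libraries and 3 to 7 with single omissions. On exon reads the TG time count of 21 was 8 without both libraries and 11 to 22 with single omissions, and the WT count of 10 was 5 to 10. A stricter threshold can only lower the counts. Leaving out libraries lowered some counts and raised others, such as to 24 in place of 22 for time in TG. The cause of these and the other changes was not tested. Depth limits the intron reads most, as in Bysl with 0 to 19 of them per library.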
